A study of Mus musculus with 9 samples.

Results

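The unfolded protein response and the chaperones of the endoplasmic reticulum (ER) were described over 40 genes, taken as the rows whose gene symbol equals a listed member, of 40879 symbols in the count files. All 40 members passed the filter on low counts, which kept 13251 genes. The cells were labelled as type 2 conventional dendritic cells (cDC2). They were sorted by flow cytometry out of cultures of mouse bone marrow kept for 9 days in 100 ng/ml human Flt3L, the cytokine that drives dendritic cell growth. The A20iKO group had 3 libraries from mice of the genotype A20fl/fl x CD11ccre, in which Cre under the CD11c promoter acts on a floxed A20 gene (Tnfaip3, a ubiquitin-editing brake on NF-kB). The WT+IFNa group had 3 libraries from wild-type cultures that received interferon alpha on day 5, and the WT group had 3 libraries from wild-type cultures. All groups shared the Flt3L culture and the sort. The design text names 3 mice per group; no source used here says that each library is 1 mouse, so the p-values measure the spread between libraries. The treatment protocol names IFNa for all 9 libraries, whereas the titles and a treatment entry name it for the WT+IFNa libraries alone, and the groups follow the titles.

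The unfolded protein response balances the folding load of the ER against its capacity. Its sensors are IRE1 (Ern1), which splices the Xbp1 mRNA, PERK (Eif2ak3), which phosphorylates eIF2alpha and so favours translation of Atf4 and later CHOP (Ddit3), and Atf6, which is cut in the Golgi to release a transcription factor. Their targets are chaperones, oxidoreductases, the machinery of ER-associated degradation and parts of the translocon, and the IRE1 and XBP1 branch is known to be active in dendritic cells. Libraries that count transcript ends, as here, measure mRNA levels and see neither Xbp1 splicing nor the cutting of Atf6 nor the phosphorylation of eIF2alpha.

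Many chaperone genes carry the ER stress response element (ERSE), the letters CCAAT and CCACG with 9 bases of any kind between them, which is bound by NF-Y with ATF6 or XBP1. The RefSeq promoter table of build GRCm38.p6 held a window for 34 of the 40 members. The 250 bases before the start were searched on both strands for exact matches, so elements with a changed base were not counted. An ERSE stood in 8 members (Hspa5, Hsp90b1, Calr, Pdia6, Canx, Dnajc3, Creld2 and Syvn1), and in 37 of all 32851 windows, a share of 0.113%. The related ERSE-II, ATTGG and CCACG with 1 base between, stood in Herpud1 and in 0.0304% of all windows. The C/EBP-ATF element TGATGNAA, bound by ATF4 and CHOP, stood in Chac1 and Herpud1 and in 3.45% of all windows. Windows of 5 ERSE members are shown, Hspa5, Hsp90b1, Calr and Pdia6 because they were the 4 most abundant members in WT and Creld2 because its libraries separated the 3 groups, with the ERSE in capitals, read 5′ to 3′ on the strand of the gene; a match on the other strand reads CGTGG first. Those of Ddit3 and Xbp1 follow because their levels differed between groups, and neither holds an exact match to any of the 3 elements in these bases. The Ddit3 window does hold cgtgccgctttctgattgg, which differs by 1 base from an ERSE on the other strand. The counts were made on another build, GRCm39, so the coordinates belong to the table and not to the count files.
Hspa5, chr2:34771840-34772089, plus strand: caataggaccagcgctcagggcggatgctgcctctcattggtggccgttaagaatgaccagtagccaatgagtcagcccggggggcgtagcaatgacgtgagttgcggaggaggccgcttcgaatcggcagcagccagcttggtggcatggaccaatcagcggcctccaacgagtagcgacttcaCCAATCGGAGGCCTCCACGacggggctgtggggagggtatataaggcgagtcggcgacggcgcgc
Hsp90b1, chr10:86705445-86705694, minus strand: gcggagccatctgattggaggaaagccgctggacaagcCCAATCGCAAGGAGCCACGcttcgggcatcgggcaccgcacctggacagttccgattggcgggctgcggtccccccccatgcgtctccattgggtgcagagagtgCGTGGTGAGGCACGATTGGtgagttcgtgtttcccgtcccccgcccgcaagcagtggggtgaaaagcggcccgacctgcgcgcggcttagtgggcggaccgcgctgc
Calr, chr8:84846932-84847181, minus strand: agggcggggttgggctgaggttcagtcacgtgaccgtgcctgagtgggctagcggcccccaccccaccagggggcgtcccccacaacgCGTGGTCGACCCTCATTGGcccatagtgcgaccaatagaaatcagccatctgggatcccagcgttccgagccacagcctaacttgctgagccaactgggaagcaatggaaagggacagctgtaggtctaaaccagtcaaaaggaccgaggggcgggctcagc
Pdia6, chr12:17266339-17266588, plus strand: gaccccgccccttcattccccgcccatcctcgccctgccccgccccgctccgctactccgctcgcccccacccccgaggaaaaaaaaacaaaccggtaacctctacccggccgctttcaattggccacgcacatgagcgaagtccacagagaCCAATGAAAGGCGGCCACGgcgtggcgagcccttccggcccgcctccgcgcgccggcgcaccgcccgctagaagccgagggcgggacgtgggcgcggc
Creld2, chr15:88819396-88819645, plus strand: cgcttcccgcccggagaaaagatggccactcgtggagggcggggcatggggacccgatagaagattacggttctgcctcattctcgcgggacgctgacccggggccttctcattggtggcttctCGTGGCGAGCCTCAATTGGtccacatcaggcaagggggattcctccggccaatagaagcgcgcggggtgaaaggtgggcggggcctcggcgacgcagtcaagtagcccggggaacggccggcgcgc
Ddit3, chr10:127290543-127290792, plus strand: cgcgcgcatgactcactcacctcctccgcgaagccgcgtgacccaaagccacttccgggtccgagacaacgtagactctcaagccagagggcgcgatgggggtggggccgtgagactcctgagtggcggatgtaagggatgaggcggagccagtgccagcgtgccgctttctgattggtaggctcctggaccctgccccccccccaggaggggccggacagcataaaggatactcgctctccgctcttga
Xbp1, chr11:5520391-5520640, plus strand: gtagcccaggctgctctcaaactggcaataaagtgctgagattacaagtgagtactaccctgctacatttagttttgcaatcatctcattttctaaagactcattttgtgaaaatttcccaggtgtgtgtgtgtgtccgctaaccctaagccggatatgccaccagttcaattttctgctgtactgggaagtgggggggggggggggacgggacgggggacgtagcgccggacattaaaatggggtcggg

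Library totals were 7187359 to 9518822 counts in A20iKO, 7041519 to 10246810 in WT+IFNa and 6900598 to 10552756 in WT, and libraries of a group differed far beyond sampling noise. Tnfaip3 had 285, 476 and 377 counts in A20iKO, against 73, 84 and 74 in WT+IFNa and 232, 51 and 42 in WT; the tag sits at the end of the transcript and no source used here says whether the floxed part reaches it, so these counts do not check the genotype. The 10 dendritic cell and cDC2 markers summed to 7089 to 8242 CPM (counts scaled to a common library total with TMM factors) in A20iKO, 9963 to 12045 in WT+IFNa and 13868 to 17885 in WT. H2-Ab1 and Cd74 were the largest parts of these sums, with means of 8490 and 5910 CPM in WT. Among the 10, Cd209a had 48, 104 and 141 counts in A20iKO, against 1021, 1166 and 649 in WT+IFNa and 3631, 1933 and 3734 in WT. Sirpa went the other way, with 3619, 3685 and 4493 counts in A20iKO, 1791, 1724 and 1332 in WT+IFNa and 1520, 1086 and 2124 in WT. The highest sums of 10 stromal markers in each group were those of A20iKO replicate 1, WT+IFNa replicate 3 and WT replicate 2, at 4367, 4684 and 4510.0 CPM. These are called stromal-rich below. The other libraries summed to at most 2319 CPM. That value was of WT+IFNa replicate 2, beside 604 in WT+IFNa replicate 1, and replicate 2 stays in the fits without the stromal-rich libraries.

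Within untreated cells the module was led by its chaperones. Hspa5 (BiP, the ER HSP70 that also holds the sensors inactive) averaged 1279 ± 283 CPM in WT (SD, n = 3, as for each mean below) and ranked 63rd of the 13251 genes kept. Calr (calreticulin, a lectin chaperone) averaged 1023 ± 267 CPM there and Hsp90b1 (Grp94, the ER HSP90) 537 ± 62.0 CPM. With Pdia6 and Atf4 these made up 50.2% of the summed WT level of all members. At the other end Trib3, a CHOP target, and Wfs1, an ER membrane protein, stayed below 5 CPM in every library, and Chac1, another target of ATF4, had no count in WT+IFNa replicate 1. Because reads mark transcript ends, these levels do not scale with transcript length.

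The summed level of all members was 8134, 7297 and 7191 CPM in A20iKO, 6357, 6205 and 7339 CPM in WT+IFNa, and 6659, 7882 and 6737 CPM in WT. The groups overlapped, and the highest library of each was the one with the most stromal signal. At an edgeR adjusted p under 0.05, the rule for every call here, 3 of 40 members (7.5%) passed between A20iKO and WT, against 10.7% of all genes. Between A20iKO and WT+IFNa it was again 3 (7.5%), against 5.46% of all genes, and between WT+IFNa and WT 1 (2.5%), against 3.1%. The members' median log2 fold change was 0.07 in A20iKO vs WT, 0.17 in A20iKO vs WT+IFNa and -0.10 in WT+IFNa vs WT, where all genes had -0.01, 0.02 and -0.03. The comparisons share libraries and are not separate evidence.

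**Figure D1:**
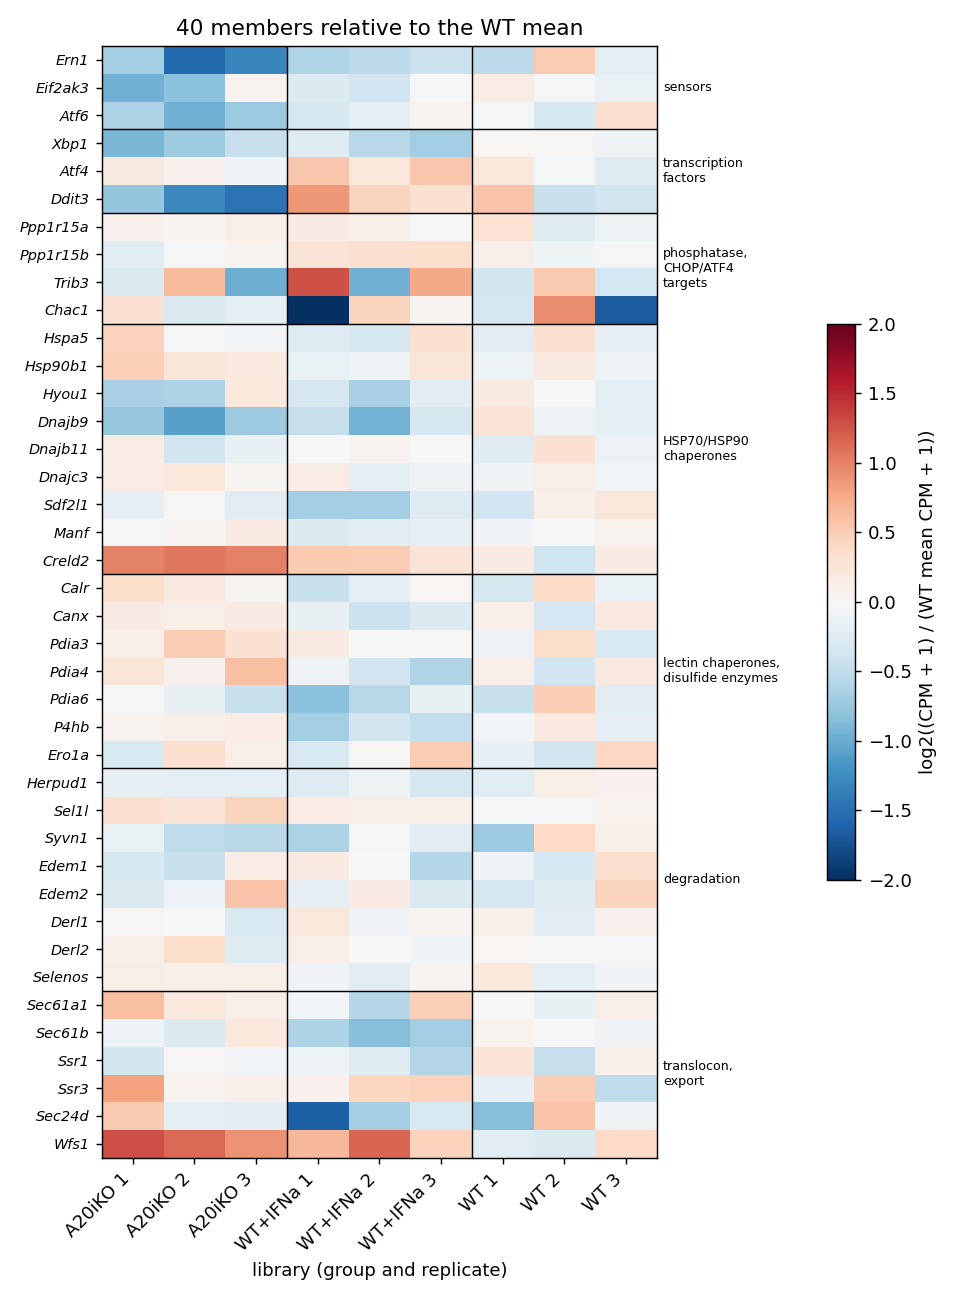
Colours give log2 of (CPM + 1) over (WT mean CPM + 1) for the 40 members (rows, by role) in the 9 libraries (columns, A20iKO, WT+IFNa, WT). Ern1, Atf6, Xbp1, Ddit3 and Dnajb9 are blue across A20iKO. Creld2 and Wfs1, the latter below 5 CPM in every library, are red there. Most chaperone and degradation rows stay pale.

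Between A20iKO and WT, 3 regulators of the response were called lower and none of its chaperones was. This is a contrast of calls: the co-chaperone Dnajb9 missed the threshold at a log2 fold change of -0.90 (edgeR adjusted p = 0.128). Its A20iKO libraries were also all below its WT libraries. Ddit3, Xbp1 and Atf6 were the 3 members called lower, against 4.91% of all genes, and each of their A20iKO libraries was below every WT library. No member was called higher, where 5.77% of all genes were. For that count of 0 by edgeR, 2 members had an unadjusted p under 0.05, DESeq2 called 1 (Creld2) and limma called 0. Groups that did not overlap were seen for 10 members, or 25% of them, and for 28% of all genes.

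Ddit3 encodes CHOP, the transcription factor of the late, death-promoting arm of the PERK branch. It had 43.3, 30.1 and 26.2 CPM in A20iKO, 137, 102 and 92.6 CPM in WT+IFNa, and 112, 54.7 and 57.7 CPM in WT. The A20iKO libraries lay below all others, and WT replicate 1 was as high as the WT+IFNa libraries. In A20iKO vs WT the log2 fold change was -1.17 (SE 0.3, edgeR adjusted p = 0.0239). It was not past the threshold without A20iKO replicate 2, A20iKO replicate 3 or WT replicate 1, where it was -1.11, -1.03 and -0.75 (edgeR adjusted p = 0.0921, 0.103 and 0.131), nor in a fit of these groups alone (adjusted p = 0.056). Against WT+IFNa it was -1.74 (SE 0.304, edgeR adjusted p = 0.00407), and this call held in all 16 alternatives, with adjusted p of 1.46e-10 to 0.0317. In WT+IFNa vs WT the value of 0.56 (SE 0.295) missed the threshold (edgeR adjusted p = 0.473), and its interval reached 1.20. The end of Ddit3 overlaps exons of Mars1, a tRNA synthetase gene on the other strand, by 68 bases in the GENCODE annotation of GRCm38, and no source used here gives the strand setting of the counting. Mars1 itself had log2 fold changes of 0.15 in A20iKO vs WT and -0.30 in A20iKO vs WT+IFNa (edgeR adjusted p = 0.887 and 0.828).

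Xbp1 encodes the factor made active by IRE1 splicing, which drives chaperone and degradation genes. It had 74.1, 85.5 and 102 CPM in A20iKO, 119, 95.9 and 86.8 CPM in WT+IFNa, and 145, 143 and 135 CPM in WT. All WT libraries lay above all others, and the A20iKO and WT+IFNa libraries overlapped. The log2 fold change was -0.69 in A20iKO vs WT (SE 0.182, edgeR adjusted p = 0.0269) and -0.49 in WT+IFNa vs WT (SE 0.181, edgeR adjusted p = 0.237). The first was lost without A20iKO replicate 1 or 2 (adjusted p = 0.0896 and 0.103) and without WT replicate 1 or 3 (adjusted p = 0.0685 and 0.0603). It was also lost when the library with the most stromal signal was left out of each group, where the edgeR value was -0.58 (adjusted p = 0.0921).

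Atf6, the sensor that is itself a membrane-bound factor, had 64.4, 50.4 and 58.7 CPM in A20iKO, 79.2, 86.8 and 104 CPM in WT+IFNa, and 96.6, 77.3 and 123 CPM in WT. The A20iKO libraries were again the lowest, and the WT+IFNa and WT libraries overlapped. In A20iKO vs WT the log2 fold change was -0.78 (SE 0.211, edgeR adjusted p = 0.0316), and in A20iKO vs WT+IFNa -0.64 (SE 0.21, edgeR adjusted p = 0.116). The first missed the threshold without A20iKO replicate 2 or 3 (adjusted p = 0.138 and 0.0906), without WT replicate 1 or 3 (adjusted p = 0.065 and 0.152) and in a fit of A20iKO and WT alone (adjusted p = 0.0562).

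Ern1, which encodes the sensor IRE1, had 16.5, 8.50 and 10.3 CPM in A20iKO, 17.4, 18.4 and 19.6 CPM in WT+IFNa, and 18.3, 38.7 and 23.5 CPM in WT. No A20iKO library reached any other, yet WT replicate 2, the stromal-rich one, was well above the rest. The log2 fold change of -1.19 in A20iKO vs WT (SE 0.38) missed the threshold (edgeR adjusted p = 0.0675), and passed it with DESeq2 (adjusted p = 0.0478), without A20iKO replicate 1 (edgeR adjusted p = 0.0445) and with log2 of the stromal marker sum as a covariate (-1.05, edgeR adjusted p = 0.0494). Without WT replicate 2 the value was -0.84 (edgeR adjusted p = 0.244), and without the stromal-rich library of each group -1.15 (edgeR adjusted p = 0.155). Eif2ak3, the PERK gene, averaged 24.0 ± 10.4 CPM in A20iKO, 29.3 ± 4.12 in WT+IFNa and 34.3 ± 3.41 in WT, with overlapping libraries. Summed over Ern1, Eif2ak3 and Atf6, the sensors had 98.1, 77.8 and 105 CPM in A20iKO, 125, 131 and 157 CPM in WT+IFNa, and 153, 149.8 and 178 CPM in WT, a sum given without a test.

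**Figure D2:**
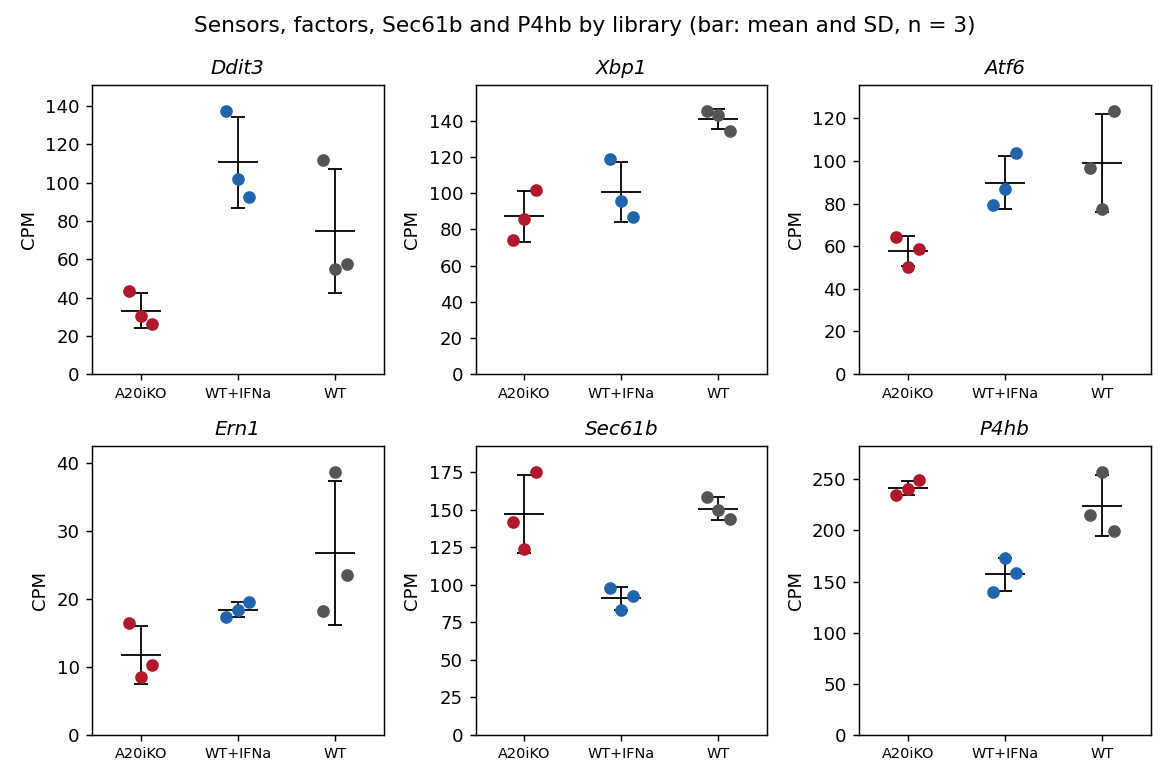
Points are single libraries, and bars the mean and SD of 3, on a linear CPM axis from 0; the groups run A20iKO, WT+IFNa, WT. Ddit3, Atf6 and Ern1 are lowest in A20iKO, Xbp1 is highest in WT, and Sec61b and P4hb are lowest in WT+IFNa.

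Atf4, the factor translated when eIF2alpha is phosphorylated, was called in no comparison. It had 397, 375 and 329 CPM in A20iKO, 513, 411 and 512 CPM in WT+IFNa, and 412, 344 and 298 CPM in WT, and A20iKO and WT overlapped. The log2 fold change was 0.06 in A20iKO vs WT (SE 0.158, edgeR adjusted p = 0.885). In WT+IFNa vs WT it was 0.45 (SE 0.158, edgeR adjusted p = 0.206), with 1 WT+IFNa library just below the highest WT one. In A20iKO vs WT+IFNa it was -0.38 (SE 0.158, edgeR adjusted p = 0.227), and all A20iKO libraries lay below all WT+IFNa ones. The eIF2alpha phosphatase subunits Ppp1r15a (GADD34, which is induced by the response) and Ppp1r15b (the constitutive subunit) averaged 88.6 ± 1.84 and 82.9 ± 8.47 CPM in A20iKO. They averaged 88.8 ± 5.60 and 107 ± 3.89 CPM in WT+IFNa, and 83.4 ± 16.9 and 86.1 ± 6.44 CPM in WT. Neither passed the threshold in any comparison. For Ppp1r15b all WT+IFNa libraries lay above those of the other groups. Its log2 fold change was 0.32 in WT+IFNa vs WT and -0.37 in A20iKO vs WT+IFNa (edgeR adjusted p = 0.467 and 0.272). Trib3 and Chac1 were too low to compare, with standard errors of at least 1.39 on the log2 scale.

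Among the 9 HSP70 and HSP90 chaperones and co-chaperones no gene was called by edgeR in any of the 3 comparisons. At an unadjusted p under 0.05 there were 2 in A20iKO vs WT (Creld2 and Dnajb9), 0 in A20iKO vs WT+IFNa and 1 in WT+IFNa vs WT (Sdf2l1). DESeq2 called 1 (Creld2), 0 and 0, and limma 0 in each. Hspa5, the usual readout of the response, had 1751, 1252 and 1237 CPM in A20iKO, 1064, 1021 and 1582 CPM in WT+IFNa, and 1092, 1604 and 1139.9 CPM in WT. One library of each group was high, and it was the stromal-rich one each time. The log2 fold change and its 95% interval were 0.14 (-0.30 to 0.59) in A20iKO vs WT, 0.21 (-0.23 to 0.65) in A20iKO vs WT+IFNa and -0.06 (-0.51 to 0.38) in WT+IFNa vs WT. A change of Hspa5 by a factor of 2 lies outside all 3 intervals.

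Hsp90b1 had 746, 637 and 617 CPM in A20iKO, 490.1, 510.2 and 638 CPM in WT+IFNa, and 500.0, 608 and 502 CPM in WT. The A20iKO libraries lay above the WT ones by little, with a log2 fold change of 0.31 (SE 0.148, edgeR adjusted p = 0.236). With the stromal sum as a covariate it was 0.37 (SE 0.103, edgeR adjusted p = 0.0204), and with the stromal-rich libraries left out 0.33 (SE 0.109, edgeR adjusted p = 0.0956).

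Creld2, a secreted ER-resident protein of the response, was highest in A20iKO. It had 22.7, 23.8 and 22.9 CPM in A20iKO, 16.2, 16.0 and 13.2 CPM in WT+IFNa, and 12.4, 8.01 and 12.4 CPM in WT. No groups overlapped, and the order was A20iKO, WT+IFNa, WT from high to low. The log2 fold change in A20iKO vs WT was 1.08 (SE 0.337, edgeR adjusted p = 0.0615), past the threshold with DESeq2 (adjusted p = 0.0339) and with the abundant transcript Gm26917 and symbols starting with mt- taken out of the counts (edgeR adjusted p = 0.0458). Dnajb9 (ERdj4, a co-chaperone that depends on XBP1) had the opposite order of means, with 12.3 ± 1.73 CPM in A20iKO, 15.4 ± 3.52 in WT+IFNa and 23.0 ± 3.97 in WT. Its WT libraries lay above all libraries of the other groups. The log2 fold change of Dnajb9 in A20iKO vs WT was -0.90 (SE 0.343, edgeR adjusted p = 0.128).

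Sdf2l1, a partner of BiP and its J proteins and a sharp target of ATF6 and XBP1, had 97.1, 111 and 92.7 CPM in A20iKO, 67.1, 67.5 and 90.3 CPM in WT+IFNa, and 82.5, 116 and 127 CPM in WT. The A20iKO libraries lay within the WT range, and all WT+IFNa libraries were below those of A20iKO. Its log2 fold change was -0.53 in WT+IFNa vs WT (SE 0.205, edgeR adjusted p = 0.259) and 0.42 in A20iKO vs WT+IFNa (SE 0.205, edgeR adjusted p = 0.34). The remaining chaperones and co-chaperones Hyou1, Dnajb11, Dnajc3 and Manf had group means of 13.7 to 154 CPM, and none passed the threshold. The 4 ranged in log2 fold change from -0.41 to 0.31 over the 3 comparisons.

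The lectin chaperones and disulfide enzymes gave 1 call of 7, in A20iKO vs WT+IFNa, where 5.46% of all genes were called. P4hb (protein disulfide isomerase, which forms and shuffles disulfide bonds) had 234, 241 and 249 CPM in A20iKO, 140.0, 173 and 158 CPM in WT+IFNa, and 215, 257 and 199.7 CPM in WT. Every WT+IFNa library was below every other, and A20iKO and WT overlapped. P4hb was higher in A20iKO than in WT+IFNa by a log2 fold change of 0.62 (SE 0.153, edgeR adjusted p = 0.0308), while WT+IFNa vs WT gave -0.51 (SE 0.153, edgeR adjusted p = 0.11). Leaving out A20iKO replicate 1, 2 or 3 ended the call (edgeR adjusted p = 0.0568, 0.114 and 0.119), and so did leaving out WT+IFNa replicate 1, 2 or 3 (edgeR adjusted p = 0.117, 0.0547 and 0.0707).

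Calr had 1311, 1166 and 1068 CPM in A20iKO, 753, 906 and 1046 CPM in WT+IFNa, and 815, 1325 and 929.9 CPM in WT. Its A20iKO libraries lay above all WT+IFNa ones, the nearest pair differing by little, and WT spanned both. In A20iKO vs WT+IFNa the log2 fold change was 0.39 (SE 0.181, edgeR adjusted p = 0.303), and 0.51 with the stromal sum as a covariate (SE 0.106, edgeR adjusted p = 0.0043). Canx (calnexin, the membrane-bound partner of calreticulin) had 389, 376 and 390.4 CPM in A20iKO, 311, 256 and 284 CPM in WT+IFNa, and 370.4, 273 and 396 CPM in WT. Its A20iKO vs WT+IFNa value of 0.44 (SE 0.158) missed the threshold (edgeR adjusted p = 0.152) and passed it with DESeq2 (adjusted p = 0.0434). In that comparison 6 of the 7 genes of this group had positive values, with a median of 0.39, where all genes had a median of 0.02.

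Pdia3, the disulfide isomerase that also sits in the MHC class I loading complex, averaged 422 ± 56.5 CPM in A20iKO, 358 ± 24.3 in WT+IFNa and 339.6 ± 83.7 in WT. Without the stromal-rich libraries its log2 fold change in A20iKO vs WT was 0.62 (SE 0.138, edgeR adjusted p = 0.0168), against 0.31 with them (adjusted p = 0.339). Pdia6 averaged 322 ± 44.2 CPM in A20iKO, 264 ± 62.9 in WT+IFNa and 370.2 ± 135 in WT, the last set wide by 523 CPM in the stromal-rich WT replicate 2. Pdia4 averaged 103 ± 19.6, 64.5 ± 12.2 and 81.9 ± 17.0 CPM in A20iKO, WT+IFNa and WT, and Ero1a, the oxidase that recharges disulfide isomerases, 11.9 ± 2.82, 12.3 ± 3.83 and 11.3 ± 3.62 CPM.

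ER-associated degradation returns misfolded proteins to the cytosol. Its 8 genes summed to 828, 804 and 856 CPM in A20iKO, 807, 786 and 760.1 CPM in WT+IFNa, and 815, 784 and 876 CPM in WT. None was called by edgeR, DESeq2 or limma in any comparison, with 1 gene at an unadjusted p under 0.05 in A20iKO vs WT and 0 in the others. That gene, Sel1l (the scaffold of the HRD1 ligase), averaged 124 ± 8.28 CPM in A20iKO, 107 ± 1.66 in WT+IFNa and 97.8 ± 4.56 in WT, and no groups overlapped. Its log2 fold change in A20iKO vs WT was 0.35 (SE 0.151, edgeR adjusted p = 0.188). Herpud1, an inducible part of the ligase, averaged 164 ± 2.21 CPM in A20iKO, 158 ± 12.9 in WT+IFNa and 185 ± 23.2 in WT. The ligase Syvn1, the lectins Edem1 and Edem2, the channel proteins Derl1 and Derl2, and Selenos had log2 fold changes of -0.39 to 0.20 over the 3 comparisons.

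At the translocon, the channel by which proteins enter the ER, Sec61b fell in WT+IFNa cells and was the sole member called between WT+IFNa and WT, where 0.702% of all genes were called lower. This subunit of the SEC61 channel had 142, 124 and 175 CPM in A20iKO, 97.7, 82.9 and 92.3 CPM in WT+IFNa, and 159, 149.7 and 144 CPM in WT. The WT+IFNa libraries lay apart below the others, and A20iKO and WT overlapped. The log2 fold change was -0.73 in WT+IFNa vs WT (SE 0.169, edgeR adjusted p = 0.0333) and 0.69 in A20iKO vs WT+IFNa (SE 0.169, edgeR adjusted p = 0.0302), both of which rest on the same WT+IFNa libraries. In A20iKO vs WT it was -0.04 (SE 0.168). The WT+IFNa vs WT call was lost without WT+IFNa replicate 1, 2 or 3 (edgeR adjusted p = 0.0689, 0.159 and 0.105) or WT replicate 1, 2 or 3 (edgeR adjusted p = 0.0955, 0.0619 and 0.0848). The A20iKO vs WT+IFNa call was lost without A20iKO replicate 1 or 3 (edgeR adjusted p = 0.0563 and 0.17) or WT+IFNa replicate 1, 2 or 3 (edgeR adjusted p = 0.0605, 0.136 and 0.0793). Without the stromal-rich libraries neither call held (edgeR adjusted p = 0.0999 and 0.0762).

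Sec61a1, the pore of the same channel, averaged 213 ± 40.1 CPM in A20iKO, 172 ± 61.3 in WT+IFNa and 170.4 ± 16.2 in WT, and did not follow Sec61b. The translocon-associated proteins Ssr1 and Ssr3 averaged 205 ± 29.0 and 119 ± 36.6 CPM in A20iKO, 182 ± 30.4 and 117 ± 16.2 CPM in WT+IFNa, and 224 ± 54.3 and 92.1 ± 33.9 CPM in WT. Sec24d, a COPII coat protein of ER export, averaged 13.4 ± 4.44, 6.94 ± 3.32 and 12.6 ± 6.36 CPM in A20iKO, WT+IFNa and WT. None of these passed the threshold.

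In WT+IFNa vs WT no member was called higher, where 2.4% of all genes were. By edgeR 1 member, Atf4, was higher at an unadjusted p under 0.05, and DESeq2 and limma called 0. Libraries did not overlap for 10 members, or 25%, and for 18.2% of all genes. Between A20iKO and WT+IFNa, P4hb and Sec61b were called higher, where 2.05% of all genes were, and Ddit3 lower, where 3.41% were. There 16 members (40%) did not overlap, against 24.6% of all genes. The 95% interval of the log2 fold change lay within a factor of 2 either way for 26 of 40 members in A20iKO vs WT, 29 in A20iKO vs WT+IFNa and 28 in WT+IFNa vs WT.

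**Figure D3:**
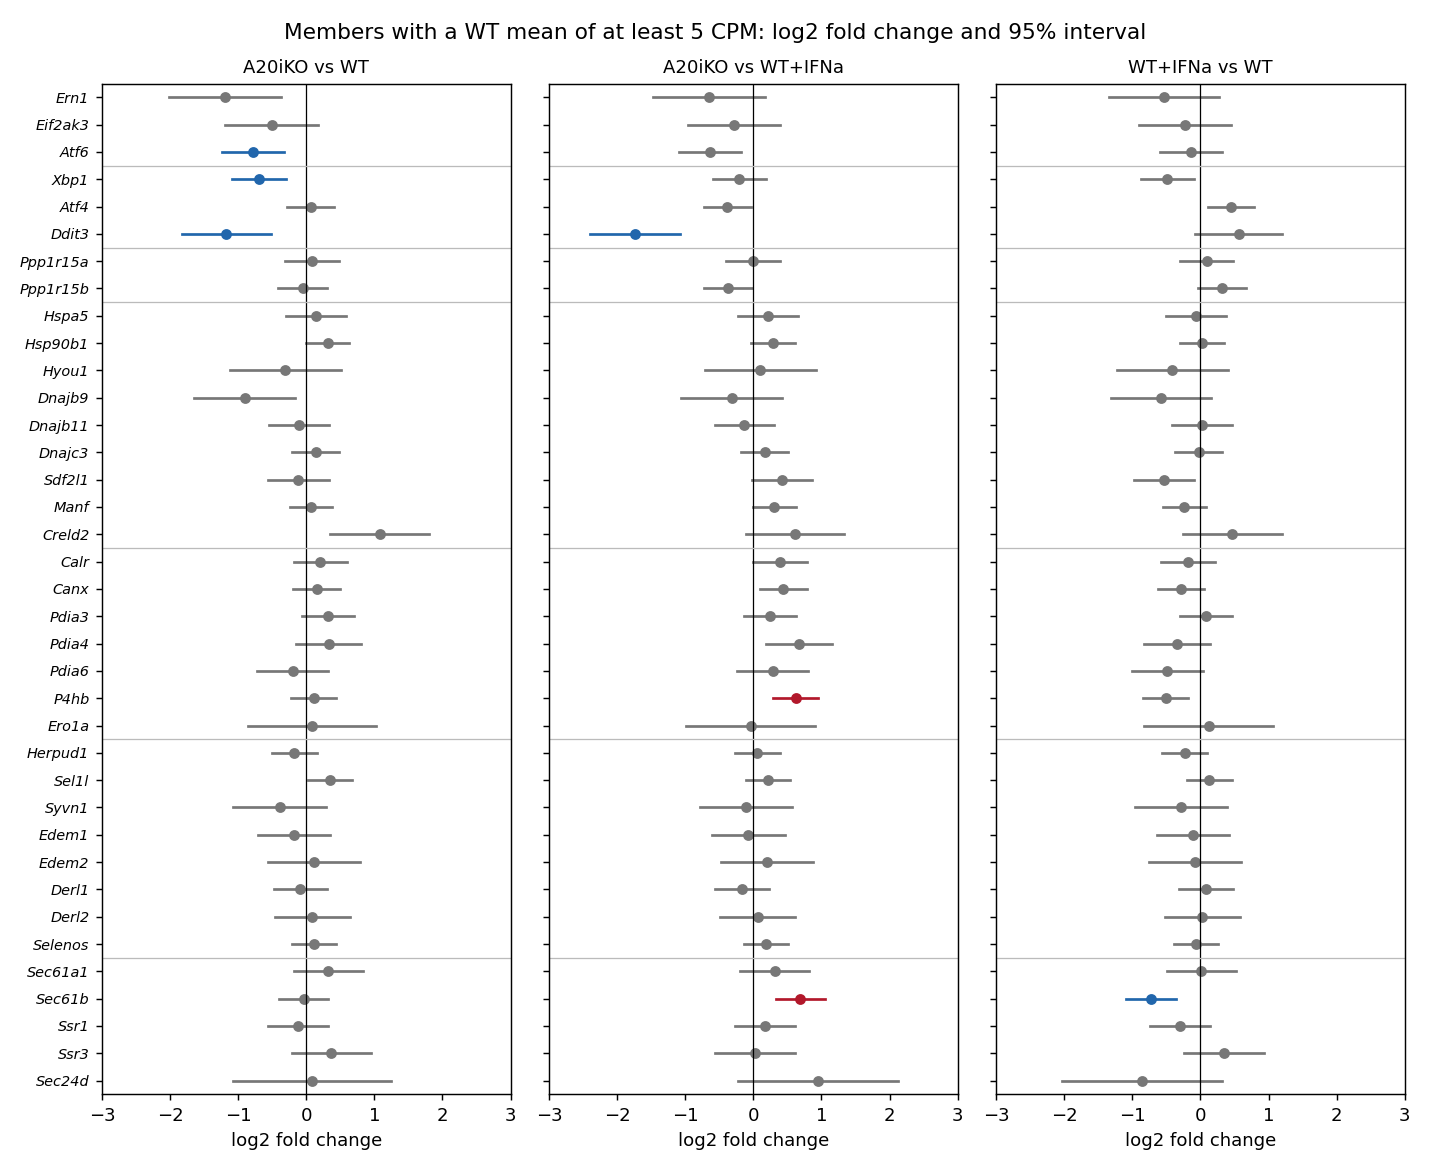
Points are log2 fold changes and lines their 95% intervals from edgeR for members with a WT mean of at least 5 CPM, by role, in A20iKO vs WT, A20iKO vs WT+IFNa and WT+IFNa vs WT; blue marks genes called lower and red genes called higher. Ddit3 lies farthest to the left in A20iKO vs WT+IFNa at -1.74, and most chaperone intervals cross 0.

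The 8 members with an ERSE in the bases searched held 52.2% to 58.3% of the summed member level in A20iKO, 47.1% to 55.0% in WT+IFNa and 48.0% to 57.3% in WT. None was called by edgeR in any comparison. At an unadjusted p under 0.05 there was 1 in A20iKO vs WT (Creld2), 1 in A20iKO vs WT+IFNa (Canx) and 0 in WT+IFNa vs WT, DESeq2 called the same 2 and limma called 0. Their median log2 fold change was 0.15 in A20iKO vs WT, 0.29 in A20iKO vs WT+IFNa and -0.12 in WT+IFNa vs WT. The other 26 members with a window had medians of 0.01, 0.06 and -0.10. In A20iKO vs WT+IFNa 7 of the 8 were positive, and Syvn1 was the exception at -0.11. Positive values were seen there for 25 of 40 members and for 6828 of 13251 genes. Hspa5, Hsp90b1, Calr and Pdia6 were all highest in the same library of each group, so the 8 signs are not independent. A part of the element in these values was not tested.

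**Figure D4:**
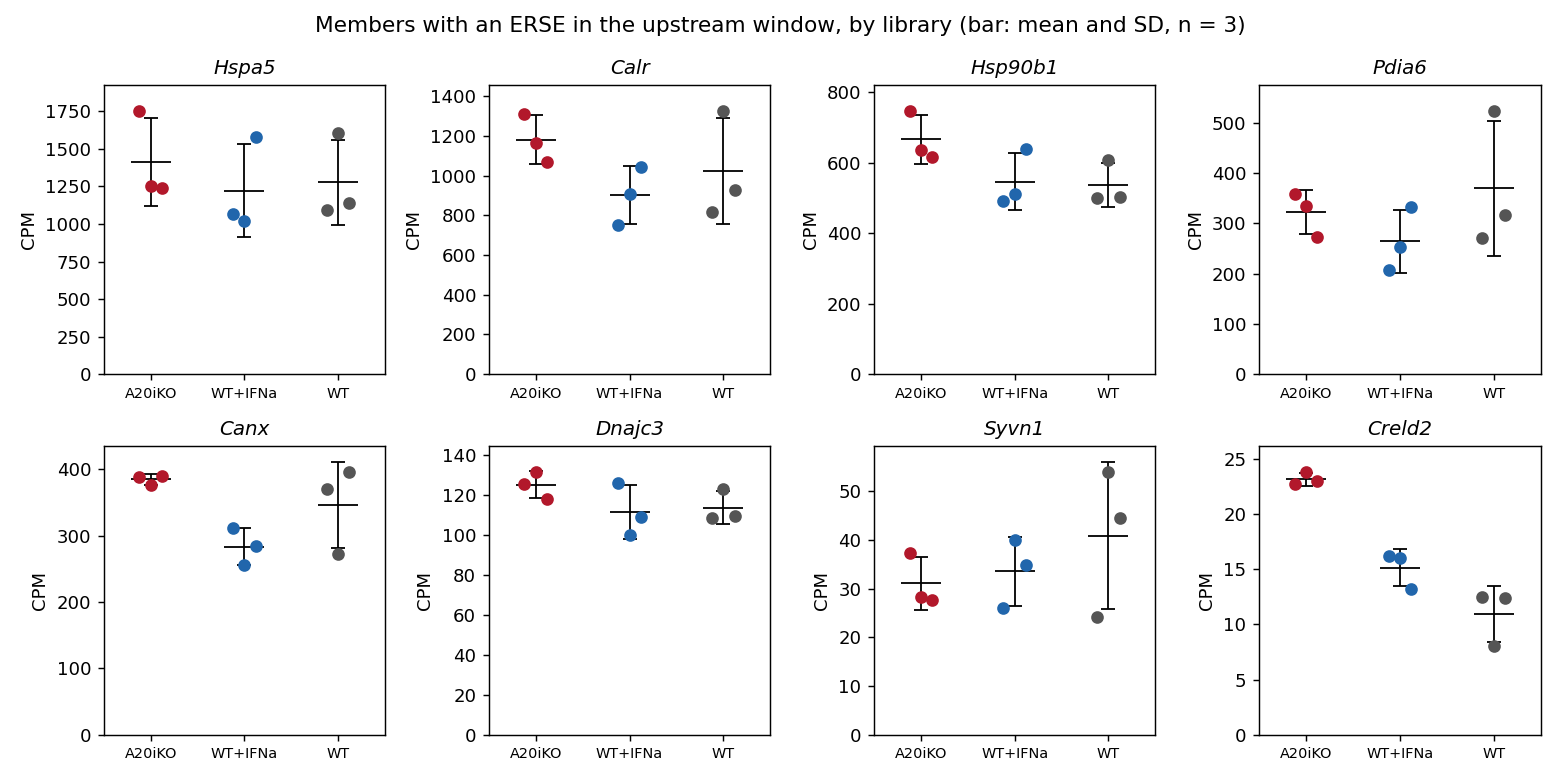
Points are single libraries, and bars the mean and SD of 3, in CPM from 0, for the 8 members with an ERSE; the groups run A20iKO, WT+IFNa, WT. Groups overlap for Hspa5, Pdia6, Dnajc3 and Syvn1, and Creld2 separates all 3 groups.

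Of 135 other genes of the pathway, 127 were tested. Between A20iKO and WT 9 were called higher and 6 lower, or 11.8%, close to the 10.7% of all genes. The ATF4, CHOP and amino acid response genes gave 6 higher and 1 lower of 28 (25%). Among them Atf5, a factor downstream of eIF2alpha phosphorylation, rose to 50.9 ± 10.7 CPM in A20iKO, against 12.2 ± 0.407 in WT (log2 fold change 2.06, SE 0.271, edgeR adjusted p = 0.000266). Slc7a11, the cystine transporter, rose to 21.0 ± 6.63 CPM, against 0.958 ± 0.846 in WT (log2 fold change 4.46, SE 0.915, edgeR adjusted p = 0.00637). The mitochondrial folate enzyme Mthfd2 rose to 182 ± 43.5 CPM, against 95.5 ± 21.4 in WT (log2 fold change 0.93, edgeR adjusted p = 0.00959), a call lost without A20iKO replicate 3 (0.72, adjusted p = 0.0597). Atf3, a stress factor of the same branch, fell to 76.1 ± 4.51 CPM in A20iKO, against 463 ± 302 in WT, a log2 fold change of -2.61 (SE 0.358, edgeR adjusted p = 0.000365). WT replicate 1 stood at 809.8 CPM of Atf3 beside 253 and 327 in the other WT libraries, and without it the value was -1.92 (edgeR adjusted p = 9.88e-05). Atf3 and Ddit3 were thus lower in A20iKO beside higher Atf5, Slc7a11 and Mthfd2.

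In the same comparison the sensors and kinases gave 2 higher and 1 lower of 15 (20%), where 5.77% of all genes were called higher and 4.91% lower. Eif2ak2 (PKR, a kinase of eIF2alpha that is itself interferon-induced) rose to 34.2 ± 3.39 CPM in A20iKO, against 9.31 ± 1.49 in WT (log2 fold change 1.88, edgeR adjusted p = 0.000625). Atf6b, the paralog of Atf6, rose to 172 ± 29.5 CPM, against 109 ± 17.2 in WT (log2 fold change 0.66, edgeR adjusted p = 0.0375). Crebrf, a regulator of the ER-bound factor Creb3, fell to 78.4 ± 5.93 CPM, against 128 ± 14.4 in WT (log2 fold change -0.71, edgeR adjusted p = 0.0268). The Atf6b call was lost without A20iKO replicate 2 or 3 or WT replicate 1 or 2 (edgeR adjusted p = 0.177, 0.139, 0.107 and 0.101). That of Crebrf was lost without A20iKO replicate 1, 2 or 3 or WT replicate 1 or 2 (edgeR adjusted p = 0.07, 0.0599, 0.103, 0.0815 and 0.0588). The Atf6b call was also lost in a fit of A20iKO and WT alone and with the replicate number as a block, and that of Crebrf without the stromal-rich libraries.

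Other ER folding genes gave 3 calls of 25 (12%) and other degradation genes 1 of 17 (5.88%) in A20iKO vs WT, on either side of the 10.7% of all genes called. Qsox1, a sulfhydryl oxidase, fell to 42.1 ± 9.26 CPM in A20iKO, against 99.7 ± 28.8 in WT (log2 fold change -1.24, SE 0.252, edgeR adjusted p = 0.0059). Ero1b, the second ER oxidase, fell to 11.4 ± 3.29 CPM, against 31.0 ± 15.7 in WT (log2 fold change -1.44, edgeR adjusted p = 0.0331). Dnajc10, a disulfide reductase of the degradation route, rose to 93.6 ± 19.4 CPM, against 52.8 ± 9.42 in WT (log2 fold change 0.83, edgeR adjusted p = 0.0347). Selenok, a membrane selenoprotein, fell to 86.6 ± 15.9 CPM, against 137 ± 26.0 in WT (log2 fold change -0.67, edgeR adjusted p = 0.0468). Of these Qsox1 alone held in every alternative. Ero1b was lost without A20iKO replicate 1 or 3 or WT replicate 1 (edgeR adjusted p = 0.102, 0.126 and 0.187; without WT replicate 1 its log2 value was -0.94), and Dnajc10 without A20iKO replicate 2 or 3 or WT replicate 2 or 3 (edgeR adjusted p = 0.146, 0.145, 0.103 and 0.11). Selenok was lost without A20iKO replicate 2 or 3 or WT replicate 1 or 3 (edgeR adjusted p = 0.172, 0.178, 0.111 and 0.194). Ero1b, Dnajc10 and Selenok were also lost in a fit of A20iKO and WT alone and with the replicate number as a block. Ero1b was lost too without the stromal-rich libraries. Selenok was lost with RLE in place of TMM factors and with Gm26917 and mt- symbols taken out.

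Transcripts known as cut by IRE1 gave 1 call of 7 (14.3%) in A20iKO vs WT, near the 10.7% of all genes. Itgb2, an integrin chain cut by IRE1 in dendritic cells that lack XBP1, fell to 189.6 ± 38.1 CPM in A20iKO, against 350.2 ± 71.5 in WT (log2 fold change -0.89, SE 0.192, edgeR adjusted p = 0.00894). It held in all 16 alternatives. Tapbp, the tapasin gene and another such transcript, averaged 852 ± 107 CPM in A20iKO, 973 ± 105 in WT+IFNa and 638 ± 61.2 in WT, and was called higher in WT+IFNa vs WT (log2 fold change 0.61, edgeR adjusted p = 0.0309). The Tapbp call was lost without WT+IFNa replicate 1 or 2 (edgeR adjusted p = 0.124 and 0.11), without WT replicate 1, 2 or 3 (edgeR adjusted p = 0.084, 0.0776 and 0.0578) and with library totals alone as the scaling (0.49, adjusted p = 0.0648). It was also lost with the replicate number as a block.

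Among the 127 genes WT+IFNa cells differed from WT cells in 4, or 3.15%, all higher, against 3.1% of all genes. Besides Tapbp these were Eif2ak2, at 51.5 ± 11.7 CPM in WT+IFNa and 9.31 ± 1.49 in WT (log2 fold change 2.46, edgeR adjusted p = 0.000159), Mthfd2, at 251 ± 18.9 and 95.5 ± 21.4 CPM (1.40, adjusted p = 0.00151), and Atf5, at 37.9 ± 7.38 and 12.2 ± 0.407 CPM (1.64, adjusted p = 0.00336). Those 3 held in all 16 alternatives. Between A20iKO and WT+IFNa 2 were called higher and 2 lower, again 3.15%, against 5.46% of all genes. Rpn1, a subunit of the glycan-transferring complex, was higher at 248 ± 28.5 CPM in A20iKO, against 152 ± 19.8 in WT+IFNa (0.71, adjusted p = 0.0178), and the serine synthesis enzyme Psat1 at 39.2 ± 14.0 CPM, against 16.5 ± 0.962 (1.25, adjusted p = 0.0357). Atf3 was lower at 76.1 ± 4.51 CPM, against 306 ± 70.0 in WT+IFNa (-2.01, adjusted p = 0.00406), and Crebrf at 78.4 ± 5.93 CPM, against 141 ± 29.1 (-0.85, adjusted p = 0.0163). Atf3 held in all 16 alternatives. Rpn1 was lost without A20iKO replicate 3 or WT+IFNa replicate 1 or 2 (edgeR adjusted p = 0.103, 0.0528 and 0.0906), and Crebrf without A20iKO replicate 1 or 3 or WT+IFNa replicate 1 (edgeR adjusted p = 0.0515, 0.0768 and 0.108). Psat1 was lost without A20iKO replicate 2 or 3 (edgeR adjusted p = 0.196 and 0.157), without WT+IFNa replicate 1, 2 or 3 (edgeR adjusted p = 0.117, 0.101 and 0.0926) and with limma (adjusted p = 0.051). The replicate number as a block also ended the Psat1 call.

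Marker mRNA of several cell types differed between the groups, and in bulk libraries fewer cells of a type and less RNA per cell cannot be told apart. In A20iKO vs WT 8 of the 10 dendritic cell and cDC2 markers were called lower. Sirpa was called higher (log2 fold change 1.42, edgeR adjusted p = 0.000112), and Itgax was not called (0.53, edgeR adjusted p = 0.275). The 8 markers of type 1 dendritic cells summed to 298 to 308 CPM in A20iKO, 560.3 to 593 in WT+IFNa and 848 to 1016 in WT, with 5 called lower in A20iKO vs WT. The 9 macrophage markers summed to 1247 to 1344 CPM in A20iKO, 532 to 683 in WT+IFNa and 387 to 471 in WT. Of these, 6 were called higher in A20iKO vs WT, Csf1r and Gpnmb among them, and 1, Adgre1, lower (log2 fold change -1.32, edgeR adjusted p = 0.00977). Neutrophil markers summed to 266 to 381 CPM in A20iKO, 317 to 372 in WT+IFNa and 97.4 to 122 in WT, a sum over genes of opposite direction. Of the 9, 3 were called higher in A20iKO vs WT, Mpo and Prtn3 among them, and 2 lower, S100a8 and S100a9 (log2 fold change -2.60 and -3.29), and in A20iKO vs WT+IFNa 3 were called higher and 3 lower. Mast cell and basophil markers summed to 177 to 198 CPM in A20iKO, 102 to 167 in WT+IFNa and 29.4 to 66.6 in WT, with 3 of 5 called higher in A20iKO vs WT. Plasmacytoid markers summed to 948 to 1207 CPM in A20iKO, 1069 to 1250.4 in WT+IFNa and 746 to 900.2 in WT, with 5 of 7 called higher in A20iKO vs WT while Siglech was lower (log2 fold change -1.94, edgeR adjusted p = 4.12e-05). No defining marker of these lists was at 0 in every library, and their part in the levels of Ddit3, Xbp1, Atf6, Sec61b and P4hb was not tested. Plasma cells are rich in these chaperones; the 10 B and plasma cell markers summed to 100.2 to 145 CPM in A20iKO, 82.3 to 95.9 in WT+IFNa and 63.8 to 116 in WT, and Cd79a was at 0 in all 9 libraries. Of the 5 tested edgeR called 0 in any comparison, whereas in both A20iKO comparisons 3 (Igkc, Cd79b and Sdc1) were higher at an unadjusted p under 0.05, DESeq2 called 2 and limma 1.

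The stromal-rich library had the highest summed member level of each group. Ern1, Hspa5, Hsp90b1, Calr, Pdia6, Ssr3 and Sec24d, 7 of 40 members (17.5%), were highest in that library in all 3 groups, as were 10.5% of all genes kept. The stromal markers did not separate the groups, with sums of 476 to 4367 CPM in A20iKO, 604 to 4684 in WT+IFNa and 769 to 4510.0 in WT, and edgeR, DESeq2 and limma called 0 of the 8 tested in any comparison. At an unadjusted edgeR p under 0.05 there was 1, Mgp, in A20iKO vs WT. Without those 3 libraries the A20iKO vs WT value was -1.59 for Ddit3 and -1.01 for Atf6 (edgeR adjusted p = 0.00895 and 0.0131), and the A20iKO vs WT+IFNa value of Ddit3 was -2.09 (edgeR adjusted p = 0.00362). Those 3 values were farther from 0 than in the full set. In the same fit Xbp1 in A20iKO vs WT was nearer to 0 at -0.58 and lost its call (edgeR adjusted p = 0.0921), and Sec61b lost its call in A20iKO vs WT+IFNa (0.73, edgeR adjusted p = 0.0762) and in WT+IFNa vs WT (-0.74, edgeR adjusted p = 0.0999).

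**Figure D5:**
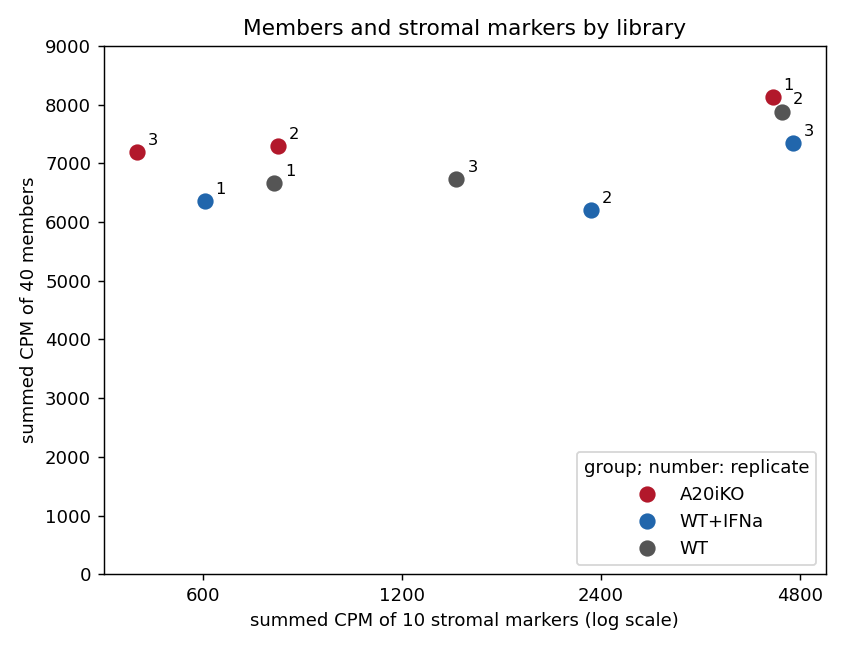
Each point is 1 library, numbered by replicate: the summed CPM of 10 stromal markers (log axis) against the summed CPM of the 40 members (linear axis from 0), coloured by group. A20iKO 1, WT 2 and WT+IFNa 3 stand to the right at 4367, 4510.0 and 4684 CPM of stromal markers, and each has its group's highest member sum.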

How the data were processed

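Libraries were made with a QuantSeq 3' kit of the forward type, per the labels' protocols. The authors deposited whole-number counts per gene symbol, 1 table per library, not normalized. The submitters' processing notes list the build GRCm39 and the tools STAR 2.7.10b, featureCounts 2.0.6, Bowtie2 and fastp 0.23.1. No source used here gives their roles, the annotation, the strand used in counting or how reads with several matches were handled. Genes with close copies, overlapping genes or antisense partners are therefore uncertain. No molecular identifiers are named in the sources used here.

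The filter was filterByExpr of edgeR (minimum count 10, minimum total 15); the genes kept held 99.83% of counts. Levels are CPM with TMM factors, and ± is the SD of 3 libraries. All 9 libraries entered 1 quasi-likelihood fit (edgeR 4.0.16, R 4.3.3) with 1 mean per group and 6 residual degrees of freedom, a common biological coefficient of variation of 0.554, and Benjamini-Hochberg adjustment over all 13251 genes. The script was tested on simulated data with less spread between libraries than here, so that test does not give error rates for these libraries. Standard errors and 95% intervals came from the F statistic. Alternatives were DESeq2 1.42.0, limma 3.58.1 with voom, other scalings, no filter, the groups compared alone, a replicate block, a stromal covariate and libraries left out. Libraries of a group had a chi-square per degree of freedom of 14.4 to 64.2, so each counted as 1 replicate.

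Members, lists and tests were chosen with earlier results of these data known. Values by library are given for members past the threshold, for Xbp1, Hspa5, Atf4, Ddit3, Ern1 and Sdf2l1 in any case, and for Hsp90b1, Creld2, Calr and Canx, which were chosen after their values were seen. Of the other pathway genes, up to 4 per list and comparison of smallest p are named. In the pathway list 6 symbols were matched by an older name. Promoter windows came from RefSeq (GRCm38.p6) and overlaps from GENCODE vM21 (GRCm38).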

Additional observations from a re-analysis of the deposited data

How the results depend on the processing

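The alternatives were followed for 38 member and pathway gene comparisons, picked for a small p in the main fit, where 30 were past the threshold. No fold change among them reversed its sign over 19 alternatives. With that choice, and with most libraries shared, a reversal was unlikely in advance, so this says little about the other genes. Ddit3 in A20iKO vs WT+IFNa was called under all 16 alternatives that bear on it, and each other member call was lost under some of them; the cause was not tested. Leaving out 1 library gave 0 to 3 members lower in A20iKO vs WT (3 with all libraries; 0 without A20iKO replicate 2 or WT replicate 1, 1 without A20iKO replicate 3 or WT replicate 3), 0 to 2 higher in A20iKO vs WT+IFNa (2; 1 without A20iKO replicate 2 and 0 without any other library of these groups) and 0 to 1 lower in WT+IFNa vs WT (1; 0 without any library of these groups), and medians over members of -0.173 to -0.0489 in WT+IFNa vs WT (-0.0957). Over all genes it gave 478 to 750 higher in A20iKO vs WT (765), 145 to 342 higher and 227 to 546 lower in A20iKO vs WT+IFNa (271 and 452), and 43 to 106 lower in WT+IFNa vs WT (93). DESeq2 called 1 member higher in A20iKO vs WT (0) and 2 lower in WT+IFNa vs WT, and over all genes 497 higher in A20iKO vs WT+IFNa and 490 higher and 210 lower in WT+IFNa vs WT (318 and 93). With the stromal covariate there were 1 member higher (Hsp90b1) and 4 lower (Ern1 added) in A20iKO vs WT, 4 higher in A20iKO vs WT+IFNa (Calr and Hsp90b1 added) and 2 lower in WT+IFNa vs WT (P4hb added), and over all genes 990 lower in A20iKO vs WT (651), 463 higher and 799 lower in A20iKO vs WT+IFNa, and 501 higher and 235 lower in WT+IFNa vs WT. Without the stromal-rich libraries there was 1 member higher in A20iKO vs WT (Pdia3), 1 higher in A20iKO vs WT+IFNa (P4hb) and 0 lower in WT+IFNa vs WT. Fitting the compared groups alone left 1 member lower in A20iKO vs WT (Xbp1) and gave 471 genes higher in A20iKO vs WT+IFNa. Taking out Gm26917 and mt- symbols gave 1 member higher in A20iKO vs WT (Creld2). No filter gave 430 genes higher in A20iKO vs WT+IFNa and 164 lower in WT+IFNa vs WT.

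Library totals alone moved the median of all genes by 0.1 in A20iKO vs WT+IFNa and by -0.123 in WT+IFNa vs WT, and the members' median to 0.271 and -0.221. Calls over all genes were then 368 higher and 379 lower in A20iKO vs WT+IFNa, and 287 higher and 184 lower in WT+IFNa vs WT; 4 members were called higher in A20iKO vs WT+IFNa (Canx and Pdia4 added).

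Same-numbered libraries of different groups deviated from their group means with correlations of -0.371 to 0.237, and 2 of 9 libraries correlated best with their own number, so the numbers were not taken as pairs. A fit with the replicate number as a block called 2 members lower in A20iKO vs WT (Ddit3 and Atf6; Xbp1 adjusted p = 0.0696), 0 higher and 1 lower in A20iKO vs WT+IFNa (Ddit3) and 0 lower in WT+IFNa vs WT, with 45 genes lower over all genes in the last.

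With 3 libraries a group, a missed threshold does not show that levels were alike.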
